A study of Mus musculus with 10 samples.

Results

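The integrated stress response was examined through 38 genes of the 23337 in the authors' comparison of cardiomyocytes with dnMKL1 and with GFP alone. All 38 symbols were found in that table. The list holds the 4 kinases of the translation factor eIF2alpha, ATF4 and its partner factors, feedback regulators, enzymes and transporters of amino acids, and the stress hormones GDF15 and FGF21. It was drawn up after several of these genes had been seen to be higher in this same comparison. Their fold changes and the authors' p-values are therefore given as a description of the set, and nothing is inferred from how many passed.

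The cells were heart muscle cells of mice labelled wild type, taken at postnatal day 14. On postnatal day 1 the mice had received 5e+08 vector genomes per gram of AAV9, a virus that reaches the heart, carrying dnMKL1 with GFP for 5 samples and GFP without dnMKL1 for the other 5. In each group the transgene was under the cTNT promoter, that of cardiac troponin T, so the virus, the promoter and GFP were common to all samples. MKL1, also named MRTF-A, is a coactivator of serum response factor (SRF), and dnMKL1 is a dominant-negative form of it. Cells were released by collagenase perfusion and sorted by fluorescence before RNA was made into cDNA libraries.

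In the integrated stress response, different stresses converge on phosphorylation of eIF2alpha. Its kinases are HRI (gene Eif2ak1), which responds to lack of heme and to mitochondrial stress, PKR (Eif2ak2), which responds to double-stranded RNA, PERK (Eif2ak3), which responds to unfolded protein in the endoplasmic reticulum, and GCN2 (Eif2ak4), which responds to uncharged tRNA. Phosphorylated eIF2alpha slows most protein synthesis while translation of the ATF4 mRNA increases, and ATF4 then activates genes for amino acid supply and for recovery. ATF4 protein can thus change without its mRNA. In heart muscle the response is known from disorders of mitochondria, where GDF15 and FGF21 are released as circulating signals.

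The deposited table gives for each gene a base mean (counts normalized for depth, averaged over the 10 libraries), a log2 fold change with its standard error (SE), and an adjusted p-value. Values of single libraries were not analysed here. The mean of each group, called the implied mean, follows from these values because the groups are equal in size. The table allows an estimate of depth: 8803029 to 17123578 counts per GFP library, and 8835136 to 17228615 per dnMKL1 library. Positive log2 fold changes mean higher in dnMKL1 libraries, a direction read from Mkl1, which the authors' deposited table puts at 9.80 (SE 0.15).

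Of the 38 genes, 36 had an adjusted p-value, and 19 of these were higher and 5 lower in dnMKL1 libraries at an adjusted p-value under 0.05. Among all 14056 genes so adjusted, 16.6% were called higher, 17.4% lower and 34.1% either way. Counts called in each role and list below are to be read beside these same shares. The median log2 fold change was 0.76 over the 38 genes and 0.02 over the 14056. With implied means under 3 set to 3, and genes with both under 3 left out, it was 0.67 over 34 members. With both groups scaled to the same total, 26 members were called higher and 1 lower, against 40.4% and 6.6% of all genes under that scaling, or 47% either way. These values were used in choosing the genes, so the contrast with the background is no evidence about them. The 5 lower genes were Gpt2, Stc2, Slc7a1, Slc38a2 and Vldlr. In RNA from sorted cells, fewer cells of a type and less RNA per cell cannot be told apart.

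**Figure D1:**
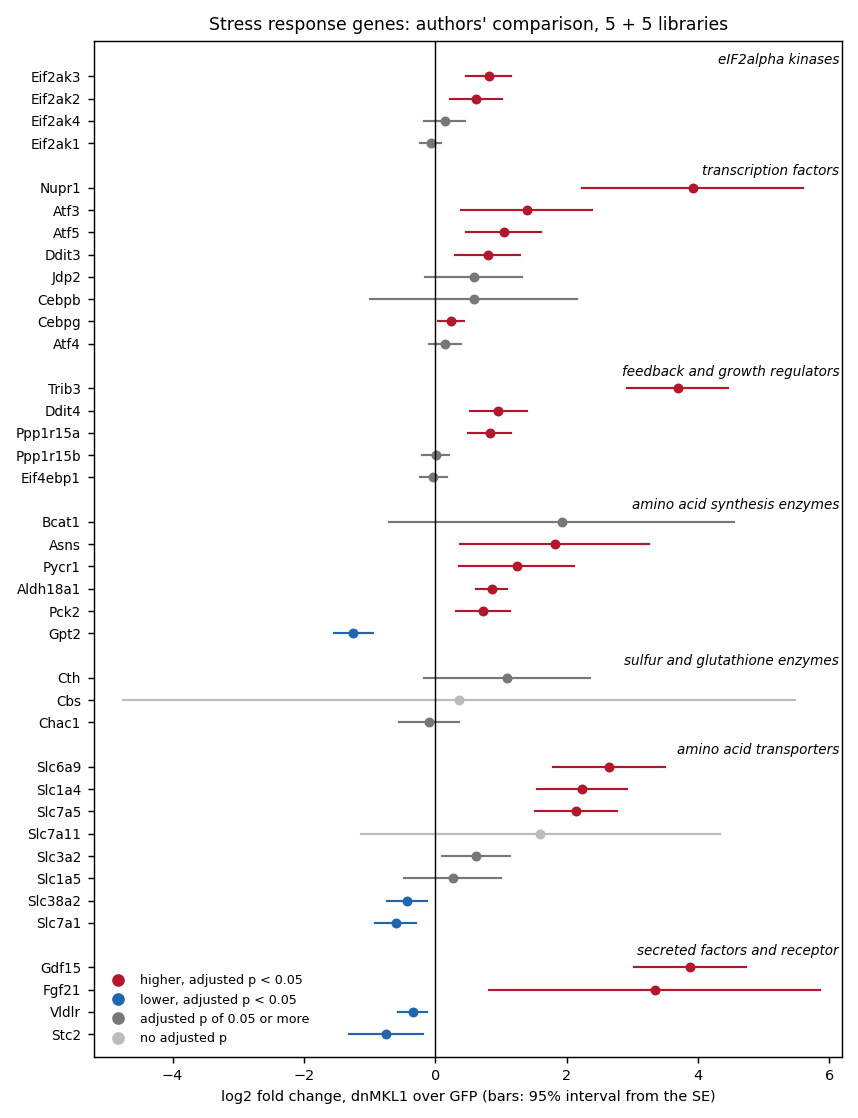
Log2 fold change of each of the 38 genes (horizontal axis, dnMKL1 over GFP) with its 95% interval from the SE in the authors' deposited table, grouped by role. Red points were called higher (19 genes), blue lower (5), dark grey were not called (12) and light grey had no adjusted p-value (2). Nupr1, Gdf15 and Trib3 lie farthest to the right and Gpt2 farthest to the left.

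Of the 4 kinases, PERK and PKR transcripts were higher and those of HRI and GCN2 were not called. Eif2ak3 had implied means of 89.2 normalized counts in GFP and 157 in dnMKL1 libraries, and the authors' deposited table gave a log2 fold change of 0.81 (SE 0.17, adjusted p = 2.8e-05). Eif2ak2 went from an implied 108 to 166 normalized counts, a log2 fold change of 0.62 (SE 0.20, adjusted p = 0.0083) in the authors' deposited table. PKR is itself induced by interferon. In a list of 18 interferon response genes 11 of 16 with an adjusted p-value were higher and 0 lower. Among the higher were Ifit1 (2.54, SE 0.42) and Stat2 (0.76, SE 0.14) in the authors' deposited table. The median log2 fold change of the list was 0.88 over the 18 genes and 0.83 over the 16. The part of that response in the Eif2ak2 value was not tested.

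Eif2ak1 was the most abundant kinase transcript for its length, with a base mean of 126 normalized counts per kilobase of exon, against 26.8 for Eif2ak2, 20.6 for Eif2ak4 and 20.4 for Eif2ak3. Its implied means were 734 and 699, and the log2 fold change of -0.07 had a 95% interval from -0.24 to 0.09 (adjusted p = 0.58 in the authors' deposited table). For Eif2ak4 the implied means were 146 and 161, and the interval of the log2 fold change ran from -0.17 to 0.46 around 0.14 (adjusted p = 0.56). Whether the kinases differed from each other in their change was not tested. When both groups were scaled to the same total, a choice that adds 0.29 to every log2 fold change, Eif2ak1 became 0.22 and passed the threshold, and its interval without that constant spans 0.

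Atf4 itself was not called. Its implied means were 806 normalized counts in GFP and 892 in dnMKL1 libraries, with a log2 fold change of 0.15 (SE 0.12, adjusted p = 0.40) in the authors' deposited table and a 95% interval from -0.09 to 0.38. Per kilobase of exon, Atf4 had 360 normalized counts, more than 89.7% of the genes tested that had an exon length. Total-count scaling moved it to 0.43 and past the threshold. The table measures mRNA alone, and neither ATF4 protein nor eIF2alpha phosphorylation is part of it.

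Around Atf4, 5 of the other 7 transcription factor genes were higher and 0 lower. Ddit3, which encodes CHOP, a factor tied to cell death under lasting stress, had implied means of 162 and 282 normalized counts and a log2 fold change of 0.80 (SE 0.25, adjusted p = 0.0065) in the authors' deposited table. Atf5, whose mRNA is also translated under eIF2alpha phosphorylation, went from an implied 23.1 to 47.6 (1.04, SE 0.29, adjusted p = 0.0017 in the authors' deposited table). Atf3, a stress-induced repressor and activator, was the most abundant of these genes, with implied means of 895 and 2347. Its log2 fold change of 1.39 carried an SE of 0.51 in the authors' deposited table (adjusted p = 0.021). Cebpg, which encodes a dimer partner of ATF4, moved least among those called, from an implied 247 to 292 (0.24, SE 0.10, adjusted p = 0.049 in the authors' deposited table).

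Nupr1, a small stress-induced chromatin protein, had the largest log2 fold change of the set, 3.92 (SE 0.86, adjusted p = 4.2e-05) in the authors' deposited table. It was rare: its implied means were 0.98 normalized counts in GFP and 14.8 in dnMKL1 libraries, and its normalized counts summed to 79.1 over the 10 libraries. The size of the fold rests on few reads in the GFP group and is the authors' fit, not a bound. Cebpb and Jdp2 were not called. Jdp2, a repressor of AP-1, had a log2 fold change of 0.59 and an interval from -0.15 to 1.33 (adjusted p = 0.24 in the authors' deposited table). For Cebpb, a dimer partner of CHOP and ATF4, the log2 fold change was 0.58 and the interval ran from -0.99 to 2.16 (adjusted p = 0.65).

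The wide interval of Cebpb came from its SE of 0.80, with a base mean of 471. In the class of 6515 genes between 100 and 1000 normalized counts, the SE had a median of 0.12 and a percentile 95 of 0.28. Cebpb, Asns (SE 0.73) and Slc7a5 (SE 0.32) lay above that percentile, and Atf3 (SE 0.51) lay above that of the class up to 10000, which was 0.19. Libraries of a group thus differed more in these 4 genes than is usual in their class, and which libraries were high cannot be read from the table. Across classes the SE falls as the base mean rises, and Slc7a5, at 194, lies in the lower part of its class.

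Some members share exon bases with genes on the opposite strand, and the library kit does not mark strand, so their reads cannot be fully told apart. Among overlaps with genes of the deposited table, beside Slc6a9, Cebpb shares 20.7% of its exon bases with Tmem189. Eif2ak1 shares 11.6% with Aimp2 and Ankrd61, Atf5 4.11% with Il4i1 and Nup62, and Ppp1r15a 0.409% with Tulp2. Ddit3 shares 4.73% with Mars and Gm4189, of which the deposited table lists Mars alone. Overlaps with annotated genes that the table does not list reached 11.4% for Ppp1r15b, 8.05% for Eif2ak3, 7.68% for Jdp2 and 4.32% for Eif2ak2, and less for Bcat1, Cebpg and Pck2.

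**Figure D2:**
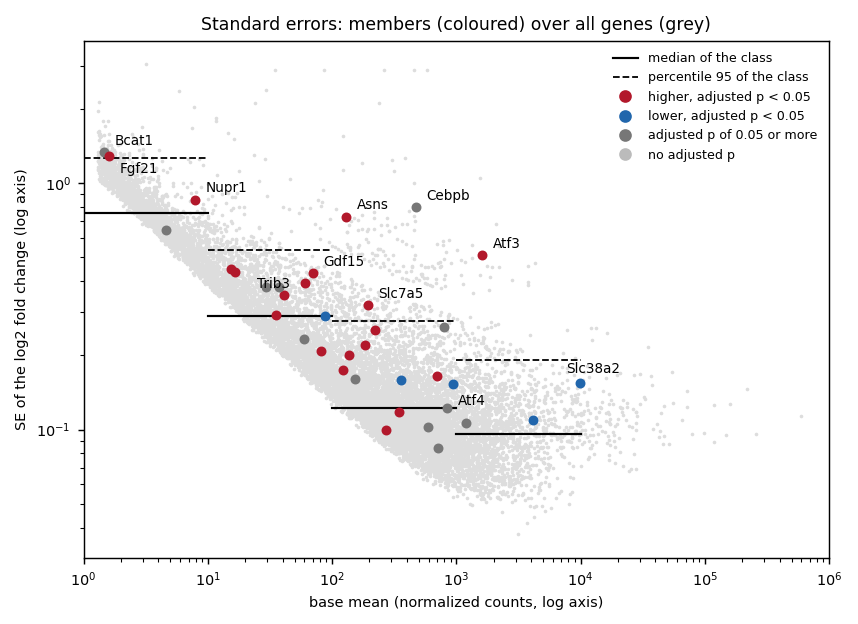
SE of the log2 fold change (vertical, log axis) against base mean in normalized counts (horizontal, log axis) for all genes with an adjusted p-value (grey) and the members (coloured by call). Solid and dashed bars are the median and percentile 95 of all genes in each base mean class. Cebpb, Asns, Atf3 and Slc7a5 lie above the dashed bar of their class, as do the rare Bcat1 and Fgf21.

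Atf3, Cebpb and Ppp1r15a are also known to respond to the isolation of cells. Of 14 genes induced by tissue dissociation or heat shock, 6 were higher and 0 lower, with a median log2 fold change of 0.40. Hspa1a and Hspa1b, near-identical copies whose reads may be shared, stood at 3.38 (SE 0.64) and 3.73 (SE 0.68) in the authors' deposited table. The others called higher were Fosb (1.18, SE 0.41), Jun (0.77, SE 0.24), Junb (0.82, SE 0.20) and Ier2 (0.53, SE 0.18). The remaining 8 genes were not called, among them Fos at 0.26 (SE 0.46, adjusted p = 0.74) and Dusp1 at 0.22 (SE 0.39, adjusted p = 0.73). The summed implied mean of this list was 14280 normalized counts in GFP and 20002 in dnMKL1 libraries. The part of cell isolation in the values of Atf3, Cebpb and Ppp1r15a was not tested.

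Of the 5 feedback and growth regulators, 3 were higher and 0 lower. PPP1R15A (GADD34) and PPP1R15B (CReP) each bring protein phosphatase 1 (PP1) to phosphorylated eIF2alpha, the first being induced by stress. Ppp1r15a went from an implied 507 to 900 normalized counts, a log2 fold change of 0.83 (SE 0.17, adjusted p = 5.7e-06) in the authors' deposited table. Ppp1r15b had implied means of 596 and 599 and a log2 fold change of 0.01 with an interval from -0.20 to 0.21 (adjusted p = 0.97). The intervals of the 2 genes do not overlap, since that of Ppp1r15a ran from 0.50 to 1.15, but the difference itself was not tested. Total-count scaling moved Ppp1r15b to 0.29 and past the threshold.

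Trib3 had the smallest adjusted p-value of the set. It encodes a pseudokinase that restrains ATF4 and AKT, and lies at chr2:152337422-152344032 in the GENCODE M21 annotation of GRCm38. Its implied means were 8.77 normalized counts in GFP and 113 in dnMKL1 libraries, 12.9-fold higher, with a log2 fold change of 3.69 (SE 0.39, adjusted p = 8.8e-19) in the authors' deposited table. Ddit4, an inhibitor of the growth kinase complex mTORC1, rose from an implied 124 to 242 (0.96, SE 0.22, adjusted p = 1.0e-04 in the authors' deposited table). Eif4ebp1, whose product holds back the cap-binding factor eIF4E, had implied means of 1220 and 1196 and was not called (log2 fold change -0.03, interval from -0.24 to 0.18, adjusted p = 0.88). Under total-count scaling it became 0.26 and was called higher.

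Among enzymes that make amino acids, 4 of 6 were higher. Aldh18a1 and Pycr1 encode the enzymes that turn glutamate into proline. Aldh18a1 had implied means of 248 and 449 normalized counts and a log2 fold change of 0.86 (SE 0.12, adjusted p = 1.2e-11) in the authors' deposited table, and Pycr1 went from an implied 9.18 to 21.7 (1.24, SE 0.45, adjusted p = 0.019). Pck2, the mitochondrial form of phosphoenolpyruvate carboxykinase, went from an implied 61.6 to 102 (0.72, SE 0.21, adjusted p = 0.0026 in the authors' deposited table). Asns, the asparagine synthetase, had the largest change of the called enzymes, from an implied 57.2 to 201, yet its log2 fold change of 1.82 had an interval from 0.38 to 3.25 (adjusted p = 0.040 in the authors' deposited table).

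Gpt2 moved the other way and was the lowest member. This mitochondrial alanine aminotransferase had implied means of 1322 normalized counts in GFP and 556 in dnMKL1 libraries, a log2 fold change of -1.25 (SE 0.15, adjusted p = 1.6e-14) in the authors' deposited table, and it was the only member still called lower under total-count scaling. Bcat1, which transfers the amino group of branched-chain amino acids in the cytosol, had only 14.6 normalized counts over all libraries and was not called (1.93, SE 1.34, adjusted p = 0.29 in the authors' deposited table).

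The 3 enzymes of sulfur and glutathione metabolism gave no call. Chac1, which breaks down glutathione and is often used as a marker of ATF4 activity, had implied means of 61.1 and 57.0 normalized counts. Its log2 fold change was -0.10 (SE 0.23, adjusted p = 0.80) in the authors' deposited table, with an interval from -0.56 to 0.35, and turned to 0.19 under total-count scaling, again not called. Cth and Cbs, which turn homocysteine into cysteine, were near the limit of detection. Cth had implied means of 2.95 and 6.32 (1.10, SE 0.64, adjusted p = 0.19 in the authors' deposited table). For Cbs all libraries together held 2.69 normalized counts, and no adjusted p-value was given.

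**Figure D3:**
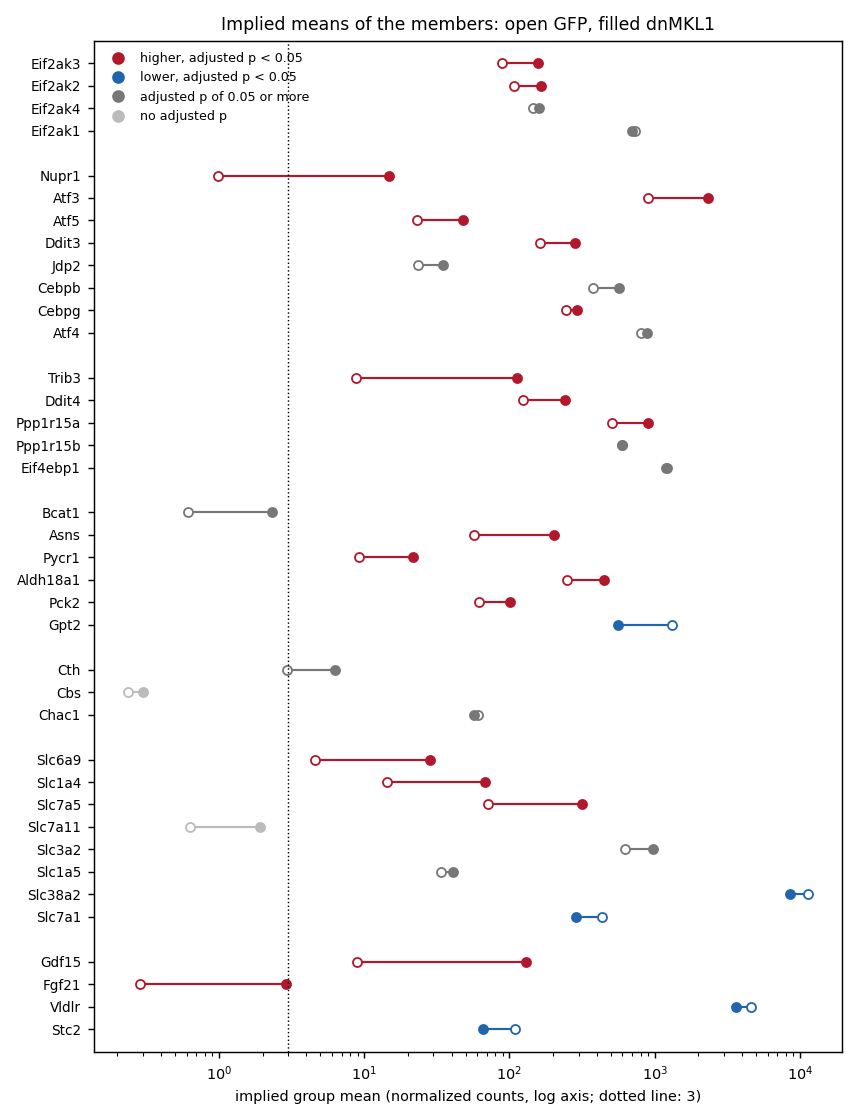
Implied mean of each member in GFP (open) and dnMKL1 libraries (filled), in normalized counts on a log axis, in the same order and colours as the plot of fold changes. The dotted line marks 3 normalized counts. Trib3, Gdf15 and Slc6a9 started below 10 in GFP libraries, whereas Slc38a2, the most abundant member, was at 11442 in GFP and 8487 in dnMKL1 libraries.

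The 8 amino acid transporters divided. Slc7a5, Slc1a4 and Slc6a9 were higher, Slc7a1 and Slc38a2 lower. Slc7a5, the transport subunit of the LAT1 carrier of large neutral amino acids, had implied means of 71.3 and 316 normalized counts, a log2 fold change of 2.15 (SE 0.32, adjusted p = 4.7e-10) in the authors' deposited table. Its partner Slc3a2, the heavy chain that brings LAT1 to the membrane, went from an implied 628 to 967 and fell just short of a call (0.62, SE 0.26, adjusted p = 0.0504 in the authors' deposited table). Slc1a4, a carrier of alanine, serine and cysteine, went from an implied 14.3 to 67.6 (2.24, SE 0.35, adjusted p = 4.4e-09 in the authors' deposited table).

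Slc6a9, the glycine transporter GLYT1, had implied means of 4.57 and 28.6 normalized counts and a log2 fold change of 2.65 (SE 0.44, adjusted p = 2.3e-08) in the authors' deposited table. In the annotation 30.2% of its exon bases also lie in other genes, among them B4galt2 and Ccdc24 on the opposite strand. Its value is therefore uncertain. Slc1a5, a glutamine carrier, was not called (0.26, SE 0.38, adjusted p = 0.66 in the authors' deposited table). The cystine carrier gene Slc7a11 held 12.7 normalized counts over all libraries and had no adjusted p-value.

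Slc38a2 encodes SNAT2, a carrier of small neutral amino acids that amino acid shortage is known to induce. It was the most abundant member for its length too, at 1127 normalized counts per kilobase, and was lower in dnMKL1 libraries (-0.43, SE 0.15, adjusted p = 0.018 in the authors' deposited table). Slc7a1, the carrier of arginine and lysine, went from an implied 434 to 286 (-0.60, SE 0.16, adjusted p = 9.0e-04 in the authors' deposited table). With total-count scaling these became -0.14 and -0.31, and neither was called.

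Gdf15 and Fgf21 encode the secreted hormones of the set. Gdf15, at chr8:70629393-70632456 on GRCm38, had implied means of 8.87 normalized counts in GFP and 131 in dnMKL1 libraries, 14.7-fold higher. Its 95% interval on the log2 scale ran from 3.03 to 4.72 (adjusted p = 2.3e-17 in the authors' deposited table). Fgf21 was far rarer, with 16.0 normalized counts over all 10 libraries and implied means of 0.29 and 2.92. It was called higher (3.34, SE 1.29, adjusted p = 0.030 in the authors' deposited table), and its fold, again the authors' fit and no bound, is poorly fixed because each group mean lies under 3 counts.

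The receptors of these hormones were read as well. Gfral, the GDF15 receptor of the hindbrain, was listed at 0. Klb, the coreceptor that FGF21 needs, had a base mean of 0.87 in the authors' deposited table, which gives it no adjusted p-value. The FGF receptor genes Fgfr1, Fgfr2 and Fgfr3 were called higher, Fgfr1 at 1.27 (SE 0.17, adjusted p = 1.0e-11) in the authors' deposited table.

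Stc2 and Vldlr, targets reported in other cells, were lower here. Stc2, a secreted glycoprotein, had implied means of 110 and 65.3 normalized counts (-0.75, SE 0.29, adjusted p = 0.029 in the authors' deposited table). Vldlr, a lipoprotein receptor, had implied means of 4635 and 3649 (-0.35, SE 0.11, adjusted p = 0.0068 in the authors' deposited table). Under total-count scaling they came to -0.46 and -0.06, neither called.

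Promoter sequence was not used in choosing the genes by their change, although such sites are part of why several are known as ATF4 targets. ATF4 dimers with C/EBP proteins bind a composite element of an ATF and a C/EBP site. RefSeq promoters on GRCm38.p6, 300 bases each from 250 before to 50 after a start, were found for 33 of the 38 genes. Slc7a5, Slc1a5, Eif4ebp1, Cth and Ppp1r15b had no entry in the table. The element was searched as TGATGNAA on both strands. It occurred in 12 of the 33 genes, or 36.4%, against 4.51% of all 27025 genes with a promoter. By promoter, it was present in 12 of 43 (27.9%), against 3.97% of all 32851 and 2.28% of the 12693 that belong to genes with an adjusted p-value.

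The 13 sites of these 12 genes are shown because they are what the sequences share. Each line gives 30 bases, 5′ to 3′ on the strand of the gene, with the 8 bases of the site in capitals, from the member with the highest log2 fold change to the one with the lowest. Sites on the opposite strand appear as their reverse complement. A match is a description of the letters, not a shown binding site.
Nupr1 (chr7:126625562-126625591, minus strand): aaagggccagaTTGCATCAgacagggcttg
Trib3 (chr2:152344028-152344057, minus strand): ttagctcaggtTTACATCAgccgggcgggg
Fgf21 (chr7:45615611-45615640, minus strand): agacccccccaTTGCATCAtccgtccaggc
Slc1a4 (chr11:20332699-20332728, minus strand): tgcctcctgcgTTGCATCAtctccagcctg
Asns (chr6:7693214-7693243, minus strand): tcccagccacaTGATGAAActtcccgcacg
Slc7a11 (chr3:50443661-50443690, minus strand): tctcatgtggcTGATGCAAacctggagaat
Slc7a11 (chr3:50443642-50443671, minus strand): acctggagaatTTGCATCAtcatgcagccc
Atf3 (chr1:191183425-191183454, minus strand): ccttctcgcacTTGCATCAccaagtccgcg
Pycr1 (chr11:120643833-120643862, minus strand): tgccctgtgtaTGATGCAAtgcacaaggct
Pck2 (chr14:55540152-55540181, plus strand): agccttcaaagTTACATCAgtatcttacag
Jdp2 (chr12:85599372-85599401, plus strand): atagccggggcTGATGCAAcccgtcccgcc
Chac1 (chr2:119351038-119351067, plus strand): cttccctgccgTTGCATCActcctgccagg
Vldlr (chr19:27216809-27216838, plus strand): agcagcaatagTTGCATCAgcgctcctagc

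The stricter form TGATGCAA, a special case of the first, was present in 9 of the 33 genes, or 27.3%, against 1.03% of all genes with a promoter. Asns carries TGATGAAA, and Pck2 and Trib3 carry TGATGTAA on the opposite strand. The site of Slc1a4 spans its start, that of Trib3 begins 14 bases after it, and the others lie before it. In Slc7a11 a pair of sites faces each other, with first bases at -66 and -47 from the start. The sites of Nupr1 and Atf3 both begin at -110.

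**Figure D4:**
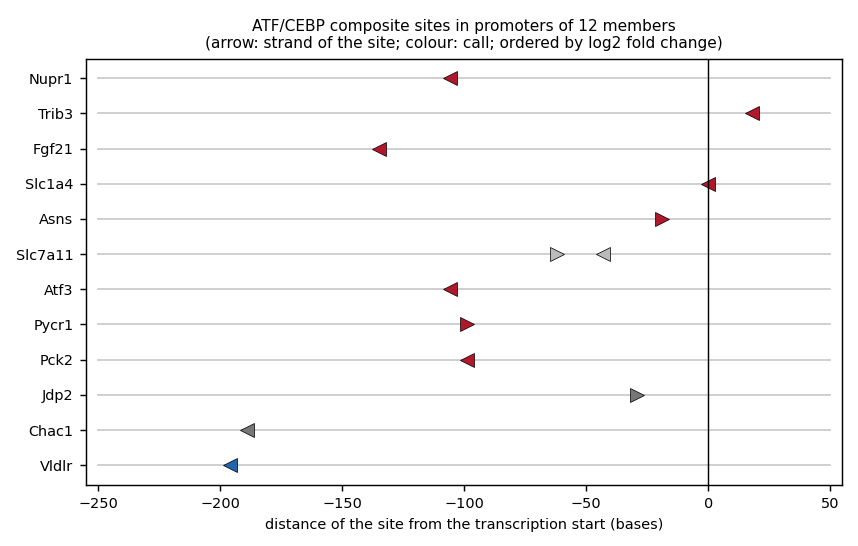
Position of each site matching the ATF-C/EBP element in the promoters of 12 members, in bases from the transcription start (0), with 250 bases before and 50 after drawn. Arrows point right for a site on the strand of the gene and left for the opposite strand, red marks genes called higher, blue lower, dark grey not called and light grey no adjusted p-value. Only the 12 members with a site are drawn, 8 of them called higher. The 3 at the bottom of the order are Jdp2, Chac1 and Vldlr.

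Genes with a site were found among the higher, the lower and the uncalled. Of the 12 genes with a site, 8 were called higher (Nupr1, Trib3, Fgf21, Slc1a4, Asns, Atf3, Pycr1 and Pck2) and Vldlr lower, and their log2 fold changes ran from -0.35 to 3.92. Of the 21 genes whose promoter lacks it, 10 were higher and 4 lower, over a range from -1.25 to 3.88, with Gdf15, Slc6a9 and Eif2ak3 among the higher ones. These counts use the contrast that chose the genes and carry no test. A lack of matches in 300 bases says nothing of sites farther off. Nupr1 and Chac1 are shown in full over the 250 bases before the start, because each holds 1 exact TGATGCAA and their log2 fold changes were 3.92 and -0.10.
Nupr1 (chr7:126625471-126625720, minus strand): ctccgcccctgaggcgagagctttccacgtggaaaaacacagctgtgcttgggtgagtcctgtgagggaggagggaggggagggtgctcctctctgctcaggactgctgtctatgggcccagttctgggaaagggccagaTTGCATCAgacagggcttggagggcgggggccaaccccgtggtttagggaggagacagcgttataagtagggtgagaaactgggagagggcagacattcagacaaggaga
Chac1 (chr2:119350992-119351241, plus strand): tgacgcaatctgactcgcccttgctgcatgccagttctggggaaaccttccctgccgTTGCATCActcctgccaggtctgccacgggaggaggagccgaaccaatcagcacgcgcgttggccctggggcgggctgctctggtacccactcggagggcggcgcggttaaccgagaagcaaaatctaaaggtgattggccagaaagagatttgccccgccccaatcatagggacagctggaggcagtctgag

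Other elements were rare in the set and among all genes. The cyclic AMP response element TGACGTCA occurred in 1 of the 33 genes, Ppp1r15a, or 3.03%, against 2.03% of all genes with a promoter. The endoplasmic reticulum stress element, searched in its full consensus form with a fixed spacer, occurred in 0 of 33, against 0.137% of all genes. The CArG box, the site of SRF, occurred in 0 of 33, against 1.81%. At such low shares these counts do not set the 33 genes apart. Both strands were searched for each, and no match says only that these letters are not in this window.

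Other genes of the pathway were read from lists built on their roles. Their calls use the authors' scaling alone, and total-count scaling would add 0.29 to each of these log2 fold changes too. Of 11 genes for eIF2, for the exchange factor eIF2B that recharges it and for the PP1 catalytic subunits, 0 were higher and 4 lower, with a median log2 fold change of -0.11. Eif2b4, the delta subunit of eIF2B, had the largest fall, -0.65 (SE 0.10, adjusted p = 5.0e-10) in the authors' deposited table, and Eif2b1 stood at -0.22 (SE 0.08, adjusted p = 0.028). The remaining subunits Eif2b2, Eif2b3 and Eif2b5 lay between -0.08 and 0.04 and were not called. Ppp1ca and Ppp1cb, catalytic partners of GADD34 and CReP, were at -0.27 (SE 0.07) and -0.38 (SE 0.08) in the authors' deposited table.

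Of 7 genes that regulate or relay signals to the kinases, 0 were higher and 2 lower, beside 16.6% and 17.4% of all genes. These 2 form the relay from mitochondria to HRI: the protease gene Oma1 was at -0.36 (SE 0.11, adjusted p = 0.0041) and 0610009O20Rik, the gene of the OMA1 substrate DELE1, at -0.81 (SE 0.11, adjusted p = 3.0e-11) in the authors' deposited table. Mitochondrial chaperones and proteases were lower in 7 of 8 cases, with a median of -0.67. The smallest adjusted p-values were those of Hspa9, at -0.88 (SE 0.09), and Afg3l2, at -0.67 (SE 0.07), in the authors' deposited table.

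Of 32 further ATF4 targets 9 were higher, 3 lower and 20 not called, beside 16.6% higher and 17.4% lower among all genes. Their median was 0.05 on the log2 scale. The higher ones included the serine and folate enzymes Psat1 (1.74, SE 0.16), Mthfd2 (2.78, SE 0.28) and Phgdh (3.82, SE 0.54) in the authors' deposited table, and also Mthfd1l (1.56, SE 0.54). Other serine and folate enzymes of the list were not called: Psph stood at 0.01 (SE 0.13), Shmt2 at -0.20 (SE 0.08, adjusted p = 0.051) and Aldh1l2 at 0.00 (SE 0.13) in the authors' deposited table. Sesn2, a leucine sensor that restrains mTORC1, was at 1.52 (SE 0.20, adjusted p = 5.1e-12). Of the cytosolic tRNA synthetase genes in this list only Iars was called, and it was lower at -0.27 (SE 0.09, adjusted p = 0.0080) in the authors' deposited table. Vegfa, the endothelial growth factor, was at -0.36 (SE 0.07, adjusted p = 1.7e-05). Among 21 of the 32 with a promoter entry, 6 held TGATGNAA, namely Aars, Gars, Herpud1, Iars, Tars and Yars, and none of these was called higher.

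The other branches of the unfolded protein response were mixed. Of 17 genes of the IRE1 and ATF6 branches 4 were higher and 2 lower, near the 34.1% of all genes called either way. Their median log2 fold change was -0.01. Hspa5, the chaperone BiP that binds PERK and ATF6, was at -0.36 (SE 0.08, adjusted p = 1.7e-04) and Dnajb11 at 0.49 (SE 0.10, adjusted p = 4.0e-06) in the authors' deposited table. Of 15 leucine zipper factors that can pair with members, 4 of 14 with an adjusted p-value were higher and 0 lower, with Jund at 0.55 (SE 0.13) and Junb at 0.82 (SE 0.20) in the authors' deposited table. Jun, Junb and Fos are counted both here and among the genes induced by tissue dissociation or heat shock.

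Several members also answer to other stress pathways, Gdf15, Ddit4 and Atf3 to p53 and Slc7a11 to NRF2. Of 12 p53 targets 9 were higher and 0 lower, with a median of 0.81 and Cdkn1a at 2.80 (SE 0.24) and Eda2r at 2.52 (SE 0.26) in the authors' deposited table. Of 9 NRF2 targets with an adjusted p-value 7 were higher and 0 lower, with Hmox1 at 2.91 (SE 0.34) and Osgin1 at 2.54 (SE 0.45) in the authors' deposited table. The part of those pathways in the values of the members, or of the further ATF4 targets above, was not tested.

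**Figure D5:**
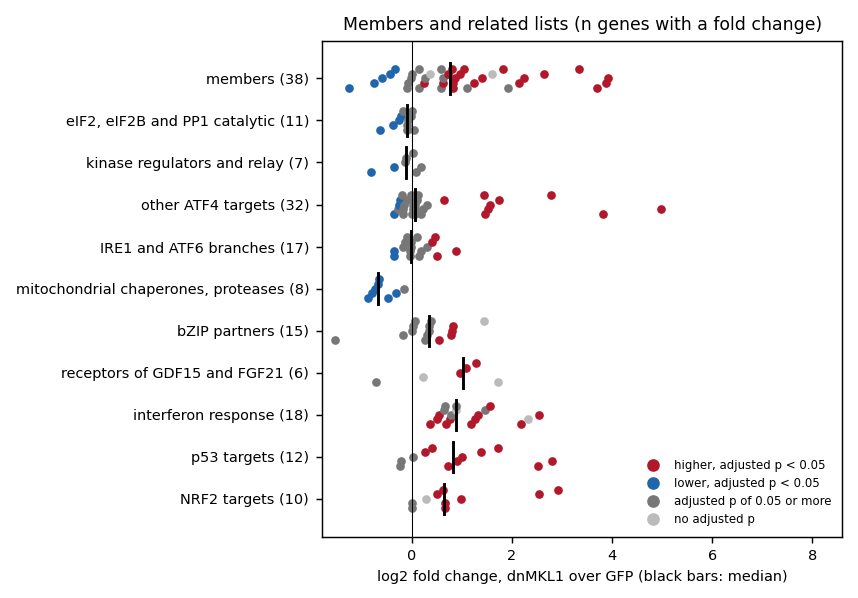
Log2 fold change (horizontal, dnMKL1 over GFP) of every gene with a fold change in the member set and in 10 related lists, 1 point per gene, coloured by call, with the median of each list as a black bar. The medians were 0.76 for the members, 0.05 for other ATF4 targets, -0.01 for the IRE1 and ATF6 branches and -0.67 for mitochondrial chaperones and proteases.

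The labelled cell type was checked on its markers. All 10 cardiomyocyte markers were abundant, with base means from 10438 to 594986 normalized counts in the authors' deposited table, and 6 were lower and 0 higher, with a median log2 fold change of -0.45. Their summed implied mean went from 1512650 to 852426, mostly through Myh6 (768373 to 421599) and Actc1 (326267 to 111228). The 12 fibroblast markers went from a summed 5310 to 9012, with 5 higher, 0 lower and 7 not called (median 0.49). Much of that difference lay in Fbln1 (748 to 1944) and Gsn (876 to 1951). The collagen genes Col1a1 (420 to 670), Col1a2 (360 to 560) and Col3a1 (1937 to 2625) were also called higher. Pdgfra (41.7 to 43.5), Dcn, Lum and Tcf21 were among those not called. Log2 fold changes of the fibroblast list ran from 0.06 to 1.38. The 12 endothelial markers summed to 4373 and 4445 with 0 called, and the 10 macrophage markers went from 182 to 160 with 1 higher and 0 lower. Of the 9 mural markers, whose median was 0.30, 3 were higher and 1 lower. The higher ones were Cspg4 (501 to 2019), Myh11 (99.2 to 164) and Tagln (46.0 to 75.9). The summed mural level went from 18254 to 15947, of which Acta2, the lower marker, made 10454 and 4999. Most of the rest was Abcc9 (6332 to 7773), which was not called. Of the erythroid markers, Hba-a1 and Hba-a2 were listed at 0. The part of fibroblast RNA in the members' values was not tested.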

How the data were processed

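RNA from sorted mouse cardiomyocytes was sequenced in 5 GFP and 5 dnMKL1 libraries. Per the labels' protocols, 10 ng of RNA went through 8 PCR cycles with a SMART-Seq kit, and 500 pg of cDNA into Nextera XT. Per the submitters' processing notes, tools were CASAVA 1.8, STAR 2.5.3a, Subread 1.5.2 and featureCounts, with the build mm10. Annotation and use of strand are not given in the sources used here.

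The deposited file is a comparison with DESeq2's column names, per the file headers. The deposited base mean is a signal, which under that column name is the mean over libraries of the authors' counts divided by size factors. The deposited log2 fold changes and SE were fitted by the authors between the groups, and the deposited Wald score is their ratio. The deposited p-value is that of the Wald score, adjusted by the authors with the Benjamini-Hochberg method over 14056 genes. Calls use the authors' adjusted p under 0.05, and no count model was run because the comparison holds no counts per library. The series text calls the samples biological replicates and does not say how animals map to them, so p-values measure the spread between these samples.

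Implied means took the base mean as the average of 2 equal groups. Intervals are the fold change plus and minus the normal quantile times the SE, at 95%. Depth came from size factors, recovered from genes with 1 read in 1 library. Reads carry no molecular identifiers, so the counts may include PCR copies of the same molecule. Exon lengths (union per gene) and overlaps came from GENCODE M21 on GRCm38, the same build as mm10, with 12694 of 14056 tested symbols matched. Recomputed adjustments were tested on simulated data (Python 3.11.15, scipy 1.17.1).

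The 38 members and the 17 lists were chosen with earlier results of these data known. Named are all members, the eIF2B subunits, Mkl1 and up to 2 genes per direction in each list by adjusted p-value. Phgdh, Mthfd1l, Psph, Shmt2, Aldh1l2, Sesn2, Ppp1ca, Fgfr2, Gfral, Klb, Fos, Dusp1 and the globins were named after their values were seen. So were Fosb, Jun, Ier2, Myh11, Abcc9 and the fibroblast markers Col1a1, Col1a2, Col3a1, Pdgfra, Dcn, Lum and Tcf21.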

Additional observations from a re-analysis of the deposited data

How the results depend on the processing

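Of the 24 called members, 17 passed a threshold of 0.01 and 25 members passed 0.1. Adjusting every p-value in the table, or centring on the median gene, gave 23 each. Requiring a change of 1 on the log2 scale gave 12 (11 higher), and requiring 100 normalized counts gave 14 (10 higher, 4 lower). Total-count scaling called 27, of which 26 were higher, or 96.3% in place of 79.2%. It moved the members' median from 0.76 to 1.05, while the other settings for that median gave 0.58 to 0.76. Over all genes, 4792 calls became 2735 with a minimum of 0.5 and 942 with a minimum of 1, and total-count scaling raised the share called higher from 48.8% to 86.0%.

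Total-count scaling reversed Eif2ak1 (0.22), Eif4ebp1 (0.26) and Chac1 (0.19), gave calls to Atf4, Eif2ak4, Jdp2, Ppp1r15b and Slc3a2, and ended those of Slc38a2, Slc7a1, Stc2 and Vldlr. Among genes of the lists, the 0.29 that this scaling adds exceeds the falls of Eif2b1, Ppp1ca and Iars. It would take away most of the falls of Oma1, Ppp1cb, Hspa5 and Vegfa. Eif2b4, 0610009O20Rik, Hspa9 and Afg3l2 would keep negative values. Which scaling is closer to RNA per cell was not tested. Cebpg lost its call with median-centring (adjusted p = 0.053) and when every p-value was adjusted (0.060). The 12 genes with a promoter site became 10 over the 250 bases before the start and 9 with TGATGCAA. No paired analysis was possible because the comparison used here carries no column per library. For the same reason no library was left out in turn, and whether 1 library decides the values of Asns, Atf3 or Slc7a5 is unknown. Members with under 10 normalized counts on average (Nupr1, Fgf21, Cth, Bcat1, Slc7a11 and Cbs) are limited by depth.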
